A study of Mus musculus with 12 samples.

Results

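The genes described here are 10 transcripts of the unfolded protein response and the integrated stress response: Atf4, Ddit3, Trib3, Asns, Chac1, Xbp1, Herpud1, Calr, Pdia4 and Manf. They were taken by symbol from the 31722 gene symbols measured in mouse hearts, and all 10 were present. Heart RNA was sequenced from C57BL/6J mice, 6 labelled Control and 6 treated with carbon tetrachloride (CCL4 in the labels), a compound that injures the liver and with repeated dosing scars it. Each library is 1 heart. The labels give no sex, age, dose or duration, and do not say what the Control mice received. The question behind the comparison is how the heart responds when the liver is cirrhotic.

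Proteins that enter the endoplasmic reticulum (ER) are folded there by chaperones and disulfide-forming enzymes. When folding falls behind, the sensors PERK, IRE1 and ATF6 start the unfolded protein response. ATF6 and the spliced form of XBP1 switch on chaperone and degradation genes, while PERK phosphorylates the translation factor eIF2alpha, which slows translation and favours that of ATF4. Other kinases that sense amino acid shortage, viral RNA or lack of haem act on eIF2alpha as well, which makes ATF4 the shared output called the integrated stress response. The genes fall into an ATF4 arm (Atf4 and its targets Ddit3, Trib3, Asns and Chac1) and an ER arm (Xbp1, Herpud1, Calr, Pdia4 and Manf). Total gene level says nothing of XBP1 splicing or ATF4 translation, the steps at which the response is mainly set.

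The promoters of these genes are shown because they carry the letters through which both arms are known to be read. RefSeq promoters on GRCm38.p6, from 250 bases before to 50 bases after the start, were found for 9 of the 10 genes. The ER stress response element, ERSE (CCAAT, then any 9 bases, then CCACG), is bound by ATF6 with NF-Y, and ERSE-II (ATTGG, any 1 base, CCACG) is a shorter form. The CARE letters (TGATGNAA) form the core of the site of ATF4 with C/EBP partners, and UPRE (TGACGTGG) is a site of XBP1 and ATF6. All were searched on both strands, and fixed motif letters are in capitals below, 5′ to 3′ on the strand of the gene.
Calr, chr8:84847042-84847121, minus strand: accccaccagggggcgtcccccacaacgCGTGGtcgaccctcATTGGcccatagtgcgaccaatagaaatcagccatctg
Herpud1, chr8:94386299-94386408, plus strand: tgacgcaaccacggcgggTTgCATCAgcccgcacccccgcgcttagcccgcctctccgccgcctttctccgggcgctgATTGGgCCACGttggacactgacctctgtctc
Chac1, chr2:119351022-119351101, plus strand: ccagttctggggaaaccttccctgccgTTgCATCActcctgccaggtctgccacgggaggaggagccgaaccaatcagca
Asns, chr6:7693218-7693247, minus strand: tgggtcccagccacaTGATGaAActtcccg
Trib3, chr2:152344029-152344058, minus strand: attagctcaggtTTaCATCAgccgggcggg

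ERSE was in 1 of the 9 promoters, that of Calr, with its first base 162 bases before the start, and in 0.119% of all 32851 promoters of the table. ERSE-II was in that of Herpud1 (52 bases before the start) and in 0.0365% of all promoters. CARE letters were in 4 of the 9, those of Asns (23 bases before the start), Herpud1 (112), Chac1 (193) and Trib3 (14 bases after the start), and in 3.97% of all promoters. UPRE was in 0 of the 9 and in 0.676% of all. In none of these windows do the motifs overlap each other. Atf4, Ddit3, Xbp1 and Pdia4 held none of the 4 motifs in this window, which says nothing about sites elsewhere.

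Values are RPKM, reads scaled by the length of the gene and by the reads of the library. Multiplied by gene length, the values fell on whole multiples of a step, so that read counts could be recovered. In 108 of the 120 values of these genes the count lay within 0.05 of a whole number, and the exceptions were the 12 values of Atf4. Libraries held between 27710952 and 66815250 such reads. Most low counts were even, as when both ends of a fragment are counted, so a read can be less than an independent molecule. CCL4 replicates 2 and 3 stood apart across all genes. CCL4 replicate 2 was the lowest of the 12 hearts for 44.5% of 14087 tested genes and CCL4 replicate 3 the highest for 41.4%. Mitochondrial RNA, with its nuclear copies on chromosome 1, held 43.7% of reads in CCL4 replicate 2 and 34% in CCL4 replicate 3, against 29.4% to 37.8% in Control hearts. The summed RPKM of the matrix genes Col1a1, Col1a2, Col3a1, Postn and Fn1 was 764 in CCL4 replicate 3, 273 in CCL4 replicate 5 and 362 in CCL4 replicate 6, against 47.2 to 115 in Control hearts. The summed atrial markers were highest in Control replicate 1 and CCL4 replicate 4 (15044.5 and 11723 RPKM), with 9616 RPKM in CCL4 replicate 3 and from 604 to 6676 RPKM in the other hearts. The 6 cardiomyocyte markers summed to 16757 RPKM in CCL4 replicate 3 and to between 23238 and 29261 RPKM in the other 11 hearts, and 5 of the 6 had lower fitted values in CCL4 hearts. All 5 endothelial markers had lower fitted values, and their sums did not overlap (125 to 155 RPKM in Control and 78.7 to 119 RPKM in CCL4 hearts). Of all tested genes 65.7% had lower fitted values, and 0.76% had groups that did not overlap. The marker sums are RPKM as deposited and were not rescaled between libraries. The liver marker Alb was at 0.187 RPKM or less and plasma cell marker Jchain at 1.10 RPKM or less. Xist, a transcript of female cells, ran from 0.0731 to 31.1 RPKM over the 12 hearts. Sex was not a covariate, and its part in the results was not tested.

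None of the 10 genes passed the test between CCL4 and Control hearts. Of the 9 that met the expression filter, 6 had lower and 3 had higher fitted values in CCL4 hearts. On the deposited scale log2 fold changes below 0 were also the rule across the transcriptome (65.7% of 14087 tested genes). Under median-of-ratios scaling, which levels the libraries on the median gene, 7039 of 14064 tested genes were lower. With mitochondrial RNA and its chromosome 1 copies left out of the scaling, 6278 of 14034 were lower. The widest differences were in Manf and Calr, lower on average in CCL4 hearts, and in Herpud1, higher on average. This order holds for a pseudocount of 1: with 0.1 the difference was wider in Trib3 (-0.33) than in Calr (-0.28) or Herpud1 (0.17). The lower endothelial marker sums of CCL4 hearts stand beside these lower values, and their part in them was not tested. The 9 genes had limma adjusted p between 0.443 and 0.976. Across all genes 0 passed (0% of 14087), with 1435 at an unadjusted p under 0.05 (10.2%), 226 higher and 1209 lower. Of the 10 genes Trib3 alone had an unadjusted p under 0.05, on the lower side, as had 8.58% of all tested genes. The exact permutation test also called 0 genes, with 1488 at an unadjusted p under 0.05.

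**Figure D1:**
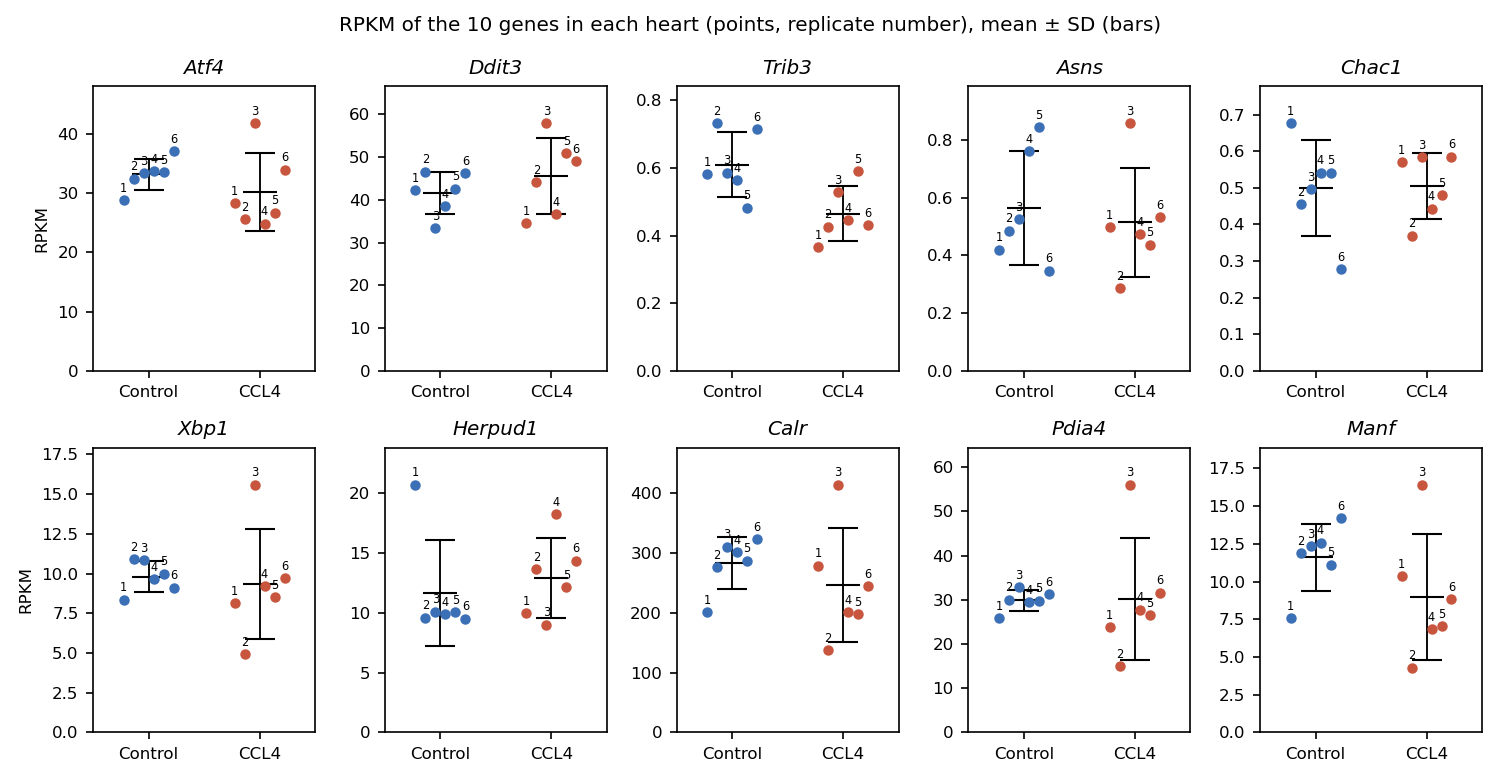
RPKM (vertical axes, from 0) of each of the 10 genes in the 6 Control hearts (blue) and 6 CCL4 hearts (red), with the replicate number above each point and bars for mean ± SD. The groups overlap in every panel, and CCL4 replicates 2 and 3 lie at opposite ends for Xbp1, Calr, Pdia4 and Manf.

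Levels spanned a wide range. Averaged over 12 hearts, Calr was the most abundant (265 RPKM, above 99% of tested genes), followed by Ddit3 (43.6 RPKM), Atf4 (31.6 RPKM) and Pdia4 (30 RPKM). Herpud1 (12.3 RPKM), Manf (10.3 RPKM) and Xbp1 (9.58 RPKM) came next. Asns (0.539 RPKM), Trib3 (0.537 RPKM) and Chac1 (0.502 RPKM) were close to the filter and did not differ from each other beyond their spread. Calr exceeded Ddit3 in all 12 hearts, and Ddit3 exceeded Atf4 in 12. Atf4 exceeded Pdia4 in 10 hearts. Herpud1 exceeded Manf in only 5 and Manf exceeded Xbp1 in 7, so these neighbours have no firm order.

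Atf4, the transcription factor at the head of its arm, was at 28.8, 32.4, 33.3, 33.7, 33.5 and 37.0 RPKM in Control replicates 1 to 6 and at 28.3, 25.5, 41.8, 24.8, 26.7 and 33.9 RPKM in CCL4 replicates 1 to 6. The groups overlapped: 4 CCL4 hearts lay below all Control hearts and CCL4 replicate 3 above all of them. Control and CCL4 means were 33.1 ± 2.63 and 30.2 ± 6.54 RPKM (SD, n = 6 each, as for all genes), with a log2 fold change of -0.15 (SE 0.12, limma adjusted p = 0.71), or -0.25 without CCL4 replicate 3. With median-of-ratios scaling the log2 fold change of Atf4 was -0.08. Fold changes are given as the CCL4 mean less the Control mean of log2(RPKM + 1), a scale that shrinks changes of genes at low levels. Atf4 lies on chromosome 15 (80255184 to 80257541, plus strand, GRCm38), and overlaps no other annotated gene.

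Ddit3 encodes CHOP, the ATF4-induced factor that promotes cell death under lasting ER stress. It was at 42.2, 46.6, 33.3, 38.6, 42.6 and 46.2 RPKM in Control replicates 1 to 6. In CCL4 replicates 1 to 6 it was at 34.6, 44.1, 57.9, 36.7, 50.8 and 49.0 RPKM. The other CCL4 hearts lay among the Control hearts, while replicates 3, 5 and 6 exceeded every one of those. These 3 hearts were also those with the highest matrix gene sums, and the part of that in the Ddit3 values was not tested. After median-of-ratios scaling of the libraries CCL4 replicate 2 was the highest of all for Ddit3, at 56.1 RPKM, against 48.2 RPKM in the highest Control heart. Means were 41.6 ± 5.002 and 45.5 ± 8.87 RPKM, and the log2 fold change was 0.11 (SE 0.13, limma adjusted p = 0.814). It was 0.04 without CCL4 replicate 3, 0.05 without Control replicate 3, and 0.19 without CCL4 replicate 1. The annotation holds 2 gene models named Ddit3 (chromosome 10, 127290774 to 127296288), of which the smaller lies inside the larger, and the file gives 1 value. Its 3′ end overlaps Mars on the opposite strand and its start the antisense Gm4189, and the strand setting of the counting is not given in the sources used here.

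Trib3, a pseudokinase that binds AKT and holds ATF4 and CHOP in check, was at 0.581, 0.733, 0.586, 0.563, 0.483 and 0.714 RPKM in Control hearts. In CCL4 replicates 1 to 6 it was at 0.366, 0.427, 0.528, 0.445, 0.591 and 0.432 RPKM. CCL4 replicate 5 alone exceeded the Control median, and 4 CCL4 hearts lay below all Control hearts. Means were 0.610 ± 0.0955 and 0.465 ± 0.0805 RPKM (log2 fold change -0.14, SE 0.06, limma adjusted p = 0.443). The exact two-sided permutation p of Trib3 over all splits of the hearts was 0.0195, and 0.399 when adjusted over all tested genes. A count of 36 to 72 reads per library stood behind these values. Trib3 (chromosome 2, 152337422 to 152344032, minus strand) met the filter in 5 Control and 2 CCL4 hearts, so it was tested mainly through the group in which it was higher.

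Asns, which makes asparagine from aspartate, and Chac1, which degrades glutathione, are amino acid response targets of ATF4. Asns lies on chromosome 6 (7675169 to 7693254, minus strand) and Chac1 on chromosome 2 (119351229 to 119354381, plus strand). Asns was at 0.420, 0.486, 0.525, 0.762, 0.844 and 0.347 RPKM in Control hearts and 0.498, 0.286, 0.858, 0.473, 0.438 and 0.532 RPKM after CCL4. It reached 0.5 RPKM in 5 hearts and therefore missed the filter, which asks for 6. In the fit without a filter its log2 fold change was -0.05 (SE 0.10, limma adjusted p = 0.903). Chac1 was at 0.676, 0.456, 0.497, 0.542, 0.542 and 0.278 RPKM in Control hearts and 0.571, 0.370, 0.584, 0.443, 0.479 and 0.585 RPKM after CCL4. All CCL4 values of Chac1 lay within the Control range (log2 fold change 0.01, SE 0.07, limma adjusted p = 0.976). Its lowest value, in Control replicate 6, rested on 12 reads. The 95% interval of its difference ran from -0.14 to 0.16.

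In the ER arm, Xbp1 encodes the transcription factor that the sensor IRE1 activates by splicing its mRNA. Xbp1 lies on chromosome 11 (5520659 to 5525893, plus strand). It was at 8.37, 10.9, 10.8, 9.66, 9.996 and 9.11 RPKM in Control replicates 1 to 6 and 8.13, 4.93, 15.6, 9.20, 8.50 and 9.72 RPKM in CCL4 replicates 1 to 6. CCL4 replicates 2 and 3 gave the lowest and the highest value of the 12 hearts. Means were 9.82 ± 0.991 and 9.35 ± 3.49 RPKM (log2 fold change -0.12, SE 0.18, limma adjusted p = 0.861). Without CCL4 replicate 2 the log2 fold change turned to 0.02, and without CCL4 replicate 3 it was -0.27.

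Calr encodes calreticulin, the calcium-binding chaperone of glycoproteins in the ER, and lies on chromosome 8 (84841850 to 84846934, minus strand). It was at 201, 276, 311, 302, 287 and 323 RPKM in Control hearts and 279, 138, 414, 201, 198 and 245 RPKM in CCL4 hearts. In 5 of 6 CCL4 hearts it lay below the Control median, while CCL4 replicate 3 lay above all Control hearts. Means were 283 ± 43.6 and 246 ± 95.3 RPKM, with a log2 fold change of -0.27 (SE 0.21, 95% interval -0.73 to 0.19, limma adjusted p = 0.699). It was -0.12 without CCL4 replicate 2, -0.44 without CCL4 replicate 3 and -0.37 without Control replicate 1.

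Pdia4, a protein disulfide isomerase, was at 25.9, 30.03, 32.8, 29.4, 29.8 and 31.3 RPKM in Control hearts and 23.8, 15.0, 56.0, 27.8, 26.6 and 31.6 RPKM in CCL4 hearts. Apart from CCL4 replicates 2 and 3 the groups covered almost the same range. Means were 29.9 ± 2.33 and 30.1 ± 13.9 RPKM (log2 fold change -0.09, SE 0.22, limma adjusted p = 0.926). The log2 fold change was 0.08 without CCL4 replicate 2 and -0.29 without CCL4 replicate 3. The microRNA gene Mir704 lies inside Pdia4 (chromosome 6, 47796141 to 47813430, minus strand).

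Manf, a secreted and ER-resident stress factor, had the widest difference of the 10 genes. It was at 7.55, 11.9, 12.3, 12.6, 11.1 and 14.2 RPKM in Control hearts and 10.3, 4.28, 16.4, 6.82, 7.03 and 8.84 RPKM in CCL4 hearts. CCL4 replicates 2, 4 and 5 lay below all Control hearts and CCL4 replicate 3 above all of them, and 5 of 6 lay below the Control median. Means were 11.6 ± 2.23 and 8.96 ± 4.19 RPKM, with a log2 fold change of -0.42 (SE 0.23, 95% interval -0.92 to 0.08, limma adjusted p = 0.561). The exact permutation p of Manf was 0.143, and 0.636 adjusted over all tested genes. The log2 fold change of Manf was -0.26 without CCL4 replicate 2, -0.60 without CCL4 replicate 3 and -0.525 without Control replicate 1. Its annotated span (chromosome 9, 106838312 to 106891979, minus strand) overlaps Dcaf1 and Rbm15b, whose reads can be counted with it or withheld from it.

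Herpud1, an ER membrane protein that assembles the degradation machinery, followed another course. It was at 20.7 RPKM in Control replicate 1 and between 9.52 and 10.1 RPKM in the other Control hearts. In CCL4 replicates 1 to 6 it was at 9.95, 13.7, 8.999, 18.3, 12.1 and 14.4 RPKM. Control replicate 1 was the highest of the 12 and CCL4 replicate 3 the lowest, and CCL4 replicates 2, 4, 5 and 6 exceeded the remaining 5 Control hearts. Means were 11.7 ± 4.45 and 12.9 ± 3.35 RPKM (log2 fold change 0.16, SE 0.20, limma adjusted p = 0.833). Without Control replicate 1 the log2 fold change was 0.32 (limma adjusted p = 0.354), and without CCL4 replicate 4 it was 0.06. Those 2 libraries had the highest atrial marker sums, and CCL4 replicate 3, lowest in Herpud1, the next. The part of atrial RNA in the result was not tested. With both left out the log2 fold change was 0.22. The antisense gene Gm15890 overlaps the start of Herpud1 (chromosome 8, 94386438 to 94395377, plus strand).

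**Figure D2:**
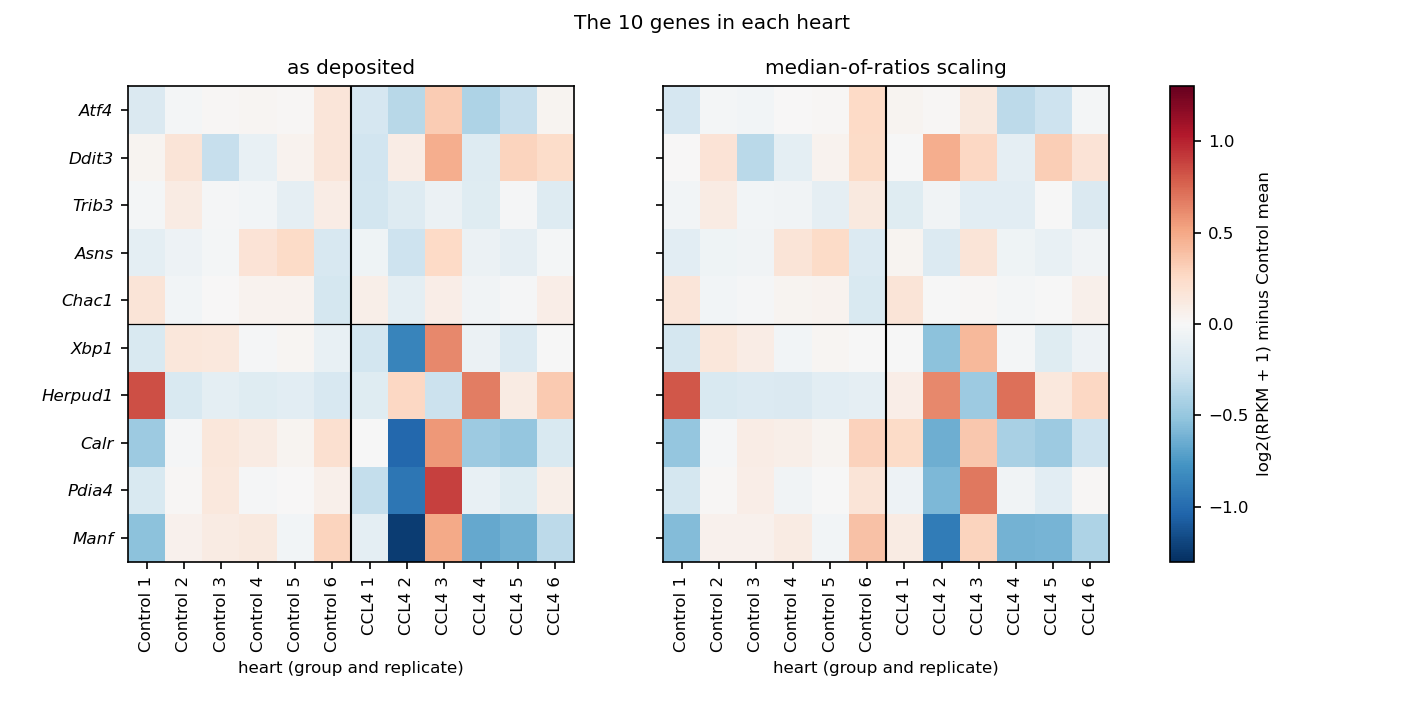
Colour gives log2(RPKM + 1) minus the Control mean for the 10 genes (rows, ATF4 arm above the line) in the 12 hearts (columns), as deposited (left) and after median-of-ratios scaling (right). Xbp1, Calr, Pdia4 and Manf are lowest in CCL4 replicate 2 in both panels, and Herpud1 has the opposite colour there.

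The spread within the CCL4 group was wider than within the Control group for Xbp1, Calr, Pdia4 and Manf. Their coefficients of variation were 10.1%, 15.4%, 7.80% and 19.2% in Control hearts and 37.3%, 38.8%, 46.0% and 46.8% in CCL4 hearts. In each of these 4 genes CCL4 replicate 3 was the highest and CCL4 replicate 2 the lowest of 12 hearts, a pattern found in 23.7% of all tested genes. The CCL4 range enclosed the Control range in 5 of the 9 tested genes (these 4 and Atf4) and in 44.2% of all tested genes. The SD on the log2 scale was larger in CCL4 hearts across genes as well, with a median ratio of 1.49, and the difference in spread was not tested. Median-of-ratios scaling, which levels the libraries on the median gene, reduced the share of tested genes with CCL4 replicate 2 lowest to 11.7% and with CCL4 replicate 3 highest to 21.4%. After it CCL4 replicate 2 was still the lowest heart for Xbp1, Calr, Pdia4 and Manf. CCL4 replicate 3 was the highest for Xbp1, Calr and Pdia4, and Control replicate 6 exceeded it in Manf (14.8 and 13.8 RPKM). In the ATF4 arm, after this scaling, CCL4 replicate 3 was the highest heart and CCL4 replicate 2 the lowest for 0 of the 5 genes. Under this scaling the log2 fold change was -0.08 in Atf4, 0.19 in Ddit3 and -0.11 in Trib3. Asns and Chac1 missed the filter there. In the ER arm the log2 fold change was -0.06 in Xbp1, 0.23 in Herpud1, -0.20 in Calr, -0.02 in Pdia4 and -0.36 in Manf. In a bulk heart sample fewer cells of a type and less RNA per cell cannot be told apart. Macrophage markers summed to 34.9 RPKM in CCL4 replicate 3 and 6.04 RPKM in CCL4 replicate 2, against 7.93 to 9.79 RPKM in Control hearts, with all 5 markers higher on average in CCL4 hearts. Fibroblast markers summed to 263 and 84.2 RPKM in these 2 hearts (61.9 to 161 RPKM in Control), and their part in the result was not tested.

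**Figure D3:**
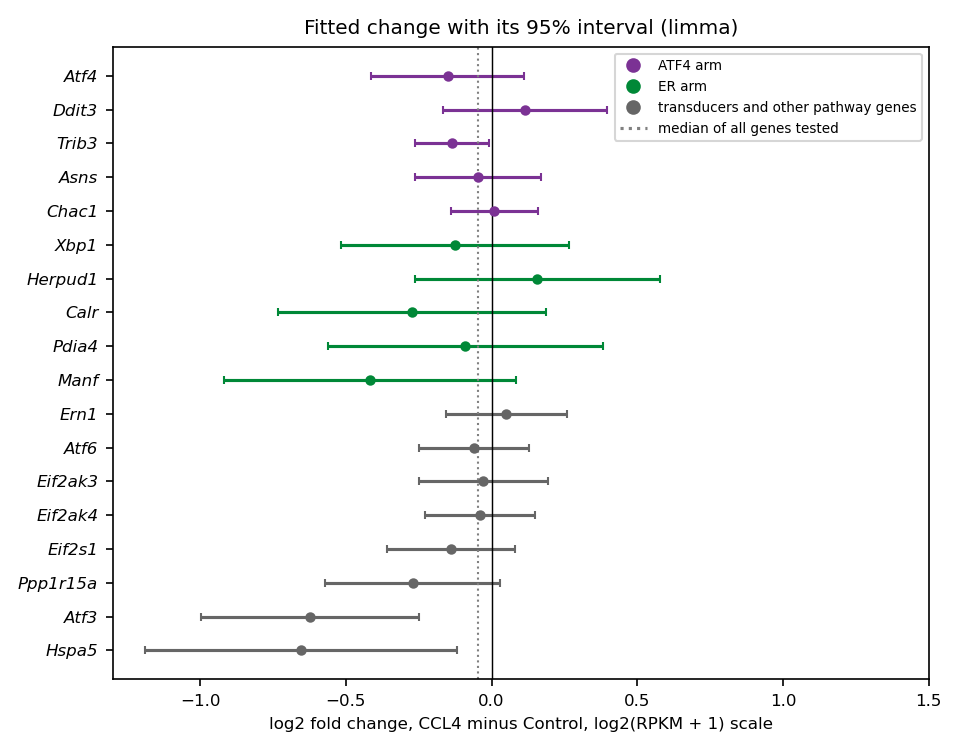
Points give the limma log2 fold change, CCL4 minus Control, of the 10 genes (purple, ATF4 arm; green, ER arm) and of 8 other pathway genes (grey), with 95% intervals; the dotted line is the median of all tested genes, -0.0483. Asns is from the fit without a filter. The intervals of Trib3, Atf3 and Hspa5 exclude 0 before adjustment, and no gene passed after adjustment.

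Of the sensors none passed the test. Ern1, which encodes IRE1, was at 0.876 ± 0.165 RPKM on average in Control hearts and at 0.954 ± 0.276 RPKM after CCL4. Atf6 was at 3.07 ± 0.283 and 2.91 ± 0.451 RPKM. The PERK gene Eif2ak3 was at 1.92 ± 0.109 and 1.89 ± 0.506 RPKM, and Eif2ak4, the amino acid sensing kinase GCN2, at 1.29 ± 0.0669 and 1.25 ± 0.326 RPKM. Their log2 fold changes lay between -0.06 and 0.05. The kinases' substrate Eif2s1 was at 11.9 ± 1.49 and 10.7 ± 1.37 RPKM, and Ppp1r15a, the phosphatase subunit that reverses its phosphorylation, at 21.1 ± 4.26 and 17.2 ± 2.83 RPKM (log2 fold change -0.27, SE 0.14, limma adjusted p = 0.529). Of the list of sensors and eIF2alpha regulators 11 of 12 genes were tested, 3 with higher and 8 with lower values and 0 past the threshold, with a median of -0.0396 beside -0.0483 for all tested genes. Its member Mbtps1, the protease that cuts ATF6, had a log2 fold change of 0.04. The split of the 11 was 6 higher and 5 lower under median-of-ratios scaling, 7 and 4 without CCL4 replicate 2 (median 0.0106) and 1 and 10 without CCL4 replicate 3 (median -0.104). The medians of all tested genes in these settings were, in the same order, -0.00043, -0.00778 and -0.0849.

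Hspa5 encodes BiP, the main ER chaperone and a classical readout of ER stress. It was at 43.2, 98.3, 99.8, 100, 86.9 and 126 RPKM in Control replicates 1 to 6 and at 85.4, 36.3, 76.1, 51.5, 45.6 and 53.0 RPKM in CCL4 replicates 1 to 6. All CCL4 hearts lay below the Control median, and Control replicate 1 lay among the low CCL4 hearts. The log2 fold change was -0.65 (SE 0.25, limma adjusted p = 0.384). Hsp90b1, the ER chaperone GRP94, was at 268 ± 41.7 and 203 ± 60.3 RPKM (-0.44, SE 0.19, limma adjusted p = 0.43). Of 15 tested ER chaperones and folding enzymes 12 had lower and 3 higher values, with a median of -0.15 and 0 past the threshold. Across all tested genes 65.7% had lower values, with a median of -0.0483. The split of the 15 was 11 lower and 4 higher with median-of-ratios scaling (median -0.0833), and the median was -0.0532 without CCL4 replicate 2 and -0.249 without CCL4 replicate 3. For all tested genes the medians were, in the same order, -0.00043, -0.00778 and -0.0849. On the higher side were the cyclophilin Ppib (log2 fold change 0.06) and the co-chaperone Dnajb9 (0.05), a target of XBP1. Hspa5 was, unlike Xbp1, Calr, Pdia4 and Manf, not at its highest in CCL4 replicate 3.

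Among other ATF4 and CHOP response regulators, Atf3 was at 2.79 ± 0.987 RPKM in Control hearts and at 1.42 ± 0.485 RPKM after CCL4 (-0.62, SE 0.17, limma adjusted p = 0.264), with 6 of 6 CCL4 hearts below the Control median. Atf3 is also an immediate early gene, and the summed RPKM of 6 other immediate early genes ran from 24.5 to 69.6 in Control and from 12.7 to 32.2 in CCL4 hearts, whose part in the result was not tested. Of these 6 genes 5 were tested, all with lower fitted values. The lipoprotein receptor Vldlr, a target of ATF4 and of PPAR factors, was at 10.8 ± 0.824 and 7.85 ± 1.23 RPKM. Its groups did not overlap, as in 0.76% of tested genes, and its exact permutation p of 0.00216 is the smallest the design allows (limma adjusted p = 0.198). Nupr1, a chromatin-binding stress factor, was at 5.92 ± 1.66 and 11.8 ± 10.4 RPKM, with 31.5 RPKM in CCL4 replicate 3. The secreted Stc2 was at 2.45 ± 0.344 and 3.33 ± 1.47 RPKM. Without CCL4 replicate 3 the log2 fold change of Nupr1 went from 0.58 to 0.24 and that of Stc2 from 0.27 to 0.12. Of the list of these regulators 9 of 12 were tested, 5 higher and 4 lower, with a median of 0.0439 and 0 past the threshold. The secreted stress hormones Gdf15 and Fgf21 were too low to be tested.

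The metabolic targets of ATF4 gave 0 calls. Of 8 tested genes of serine, one-carbon and amino acid synthesis 3 had higher and 5 lower values (median -0.0557), from Mthfd2 (0.11) and Pck2 (0.04) to Psph (-0.10) and Aldh1l2 (-0.14). That list had 1 higher and 7 lower without CCL4 replicate 3 (median -0.0891) and 4 of each without CCL4 replicate 2 (median -0.00178). The medians of all tested genes were -0.0849 and -0.00778 in these fits. Of amino acid transporters 3 of 8 were tested. The cationic amino acid carrier Slc7a1 was at 2.61 ± 0.713 and 1.61 ± 0.307 RPKM (-0.46, SE 0.13, limma adjusted p = 0.284) with all 6 hearts under the Control median. Slc38a2 had a log2 fold change of -0.24 and Slc3a2 of 0.01. All 12 aminoacyl-tRNA synthetases had lower values (median -0.0811), with Mars (-0.18) and Iars (-0.16) of smallest p and 0 past the threshold. For the synthetases 6 of the 12 were higher and 6 lower with median-of-ratios scaling, and 4 higher and 8 lower without CCL4 replicate 2; under that scaling the median of all tested genes was -0.00043.

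In ER-associated degradation 7 of 14 tested genes had higher and 7 lower values (median -0.0105, 0 past the threshold), from Edem2 (0.08) and Herpud2 (0.05) to Syvn1 (-0.08) and Derl1 (-0.16). The even split rested on CCL4 replicate 3, without which 1 was higher and 13 lower (median -0.0648). Of all 13868 tested genes 10589 were lower in that fit (median -0.0849). The split was 3 higher and 11 lower with TPM scaling, where 10919 of all 14140 tested genes were lower. With median-of-ratios scaling it was 8 and 6, where 7039 of all 14064 tested genes were lower. The translocon and secretory list had 6 of 17 higher and 11 lower (median -0.0573, 0 past the threshold), with Spcs3 at 0.21, Sec62 at 0.12, Sec61g at -0.16 and Sec63 at -0.17. Without CCL4 replicate 3 the split was 2 higher and 15 lower (median -0.153), with Spcs3 at 0.09 and Sec62 at 0.01. Without CCL4 replicate 2 it was 10 higher and 7 lower (median 0.0385), as with median-of-ratios scaling, so the direction of this list depends on single libraries and on the scaling. The median of all tested genes moved as well: -0.0849 without CCL4 replicate 3, -0.00778 without CCL4 replicate 2 and -0.00043 with that scaling. CCL4 replicate 3 was the highest heart for 16 of these 17 genes and for 9 of the 14, against 41.4% of all tested genes.

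Grouping by promoter letters was done after the values had been seen and is given as a description. Of 15 tested genes with ERSE letters in a promoter, 14 had lower values in CCL4 hearts, against 67.5% of the 9058 tested genes in the promoter table, and their median was -0.168 against -0.0502. The 15 include Hspa5 (-0.65), Hsp90b1 (-0.44), the disulfide isomerase Pdia6 (-0.36), Calr (-0.27), Creld2 (-0.18), the lectin chaperone Canx (-0.17), Syvn1 (-0.08) and Dnajc3 (-0.08). The 7 others belong to none of the pathway lists. They are Acacb (-0.23), Hnrnpa3 (-0.23), Pan2 (-0.12), Alg12 (-0.11), Zfp57 (-0.08), Xlr3b (-0.02) and Spats2l (0.04), which was the exception. None of the 15 passed the test. With median-of-ratios scaling 13 of the 15 were lower (50.5% of all), and without CCL4 replicate 2 the count was 11 (53.3% of all, median -0.0579). Without CCL4 replicate 3 all 15 were lower (78.6% of all). In the fit without a filter 17 of 23 were lower (59.8% of all, median -0.0811). With array weights 12 of the 15 were lower (57.5% of all). In that weighted fit 5 of the 15 passed, beside 1469 of all 9058. The 242 tested genes with CARE letters were lower in 64% (median -0.0388), and of 8 with ERSE-II letters 5 were.

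**Figure D4:**
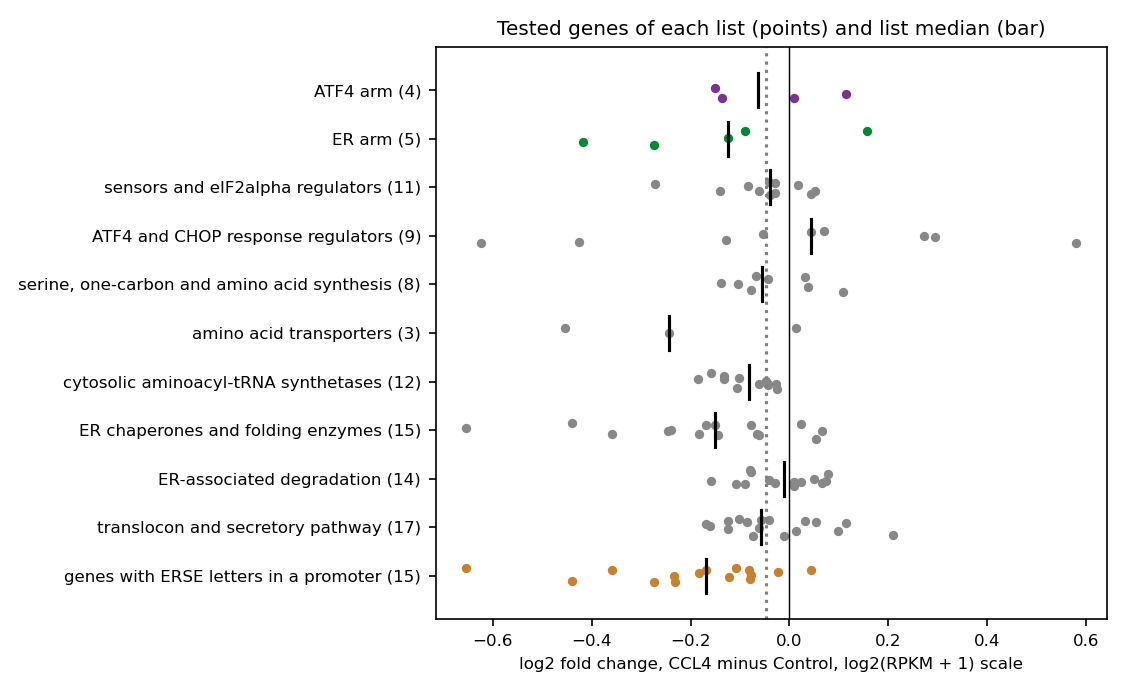
Each point is the limma log2 fold change, CCL4 minus Control, of a tested gene in the 2 arms, in 8 other pathway lists and among genes with ERSE letters in a promoter; bars are list medians, numbers in brackets are genes, and the dotted line is the median of all tested genes. The ER chaperones and the ERSE genes have the medians -0.15 and -0.168, and no gene shown passed the test.

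The genes whose course over the 12 hearts was most like that of each arm were sought after the group means had been taken off, as Pearson correlations with the mean standardized value of the arm. The points share library depth and composition, and the values are a description. For the ER arm these were Gm15500 (r = 0.987), Sp3 (0.976), Eaf1 (0.976), Tmem123 (0.973) and Brpf3 (0.973). Set against the mean of the other 4 genes of that arm, so that no gene is compared with itself, r was 0.966 for Pdia4, 0.943 for Xbp1, 0.806 for Calr, 0.785 for Manf and -0.567 for Herpud1. For the ATF4 arm, without Asns, the nearest genes were Ifi211 (0.981), Nav1 (0.97), Gucy1b3 (0.966), Fcer1g (0.965) and Rhbdf1 (0.964). Against the mean of the other 3, r was 0.671 for Ddit3, 0.484 for Atf4, 0.205 for Trib3 and -0.138 for Chac1, the last of which rests on few reads.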

How the data were processed

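Heart RNA of 12 mice was measured, 6 per group, with groups and replicate numbers taken from sample titles. The authors deposited RPKM values, 1 column per heart; their processing notes, as submitted to GEO, name GRCm38, featureCounts (Subread 1.5.1) and Trimmomatic 0.36. Per the labels' protocols, libraries were made with a stranded mRNA kit. The aligner, annotation release and strand setting are not given in the sources used here. RPKM times exon length (GENCODE M21, 95.4% of symbols) gave reads: 92.6% to 93.9% of values up to 30 reads lay within 0.05 of a whole number.

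Genes with at least 0.5 RPKM in at least 6 libraries (14087) were tested with limma 3.58.1 (R 4.3.3; trend fit to log2(RPKM + 1), no covariate), with Benjamini-Hochberg adjustment over all of them and a threshold of 0.05. Exact two-sided permutation tests used every split into 6 and 6 for each gene, adjusted likewise. Nothing in the labels says more of the mice than that they are separate hearts, so p-values measure the spread between these 12 samples. The limma fit was tested on simulated reads with known changes, which held no outlying hearts such as CCL4 replicates 2 and 3. Alternatives covered pseudocount, filter, scaling, array weights, a rank-sum test, the replicate number as a block and libraries left out; limma's voom with median-of-ratios factors on recovered reads, pairs of libraries left out and the scaling without chromosome 1 copies of mitochondrial genes were added after seeing the data, as was the ERSE-II motif. Named are the 10 genes, 8 transducer genes and the 5 genes most like each arm. Up to 2 genes of smallest p per direction from each pathway list are named too. Acacb, Hnrnpa3, Pan2, Alg12, Zfp57, Xlr3b, Spats2l, Pdia6, Creld2, Canx, Dnajc3, Gdf15 and Fgf21 were chosen after their values were seen. The genes and lists were chosen with earlier results of these data known. Other software was numpy 2.4.6 and pandas 2.3.3 under Python 3.11.15, with matplotlib 3.10.9 for plots.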

Additional observations from a re-analysis of the deposited data

Results flagged for a closer look

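Of 104 groups of 6 hearts examined for 52 genes on the log2(RPKM + 1) scale, 6 held a flagged heart. A heart was flagged where its gap to its nearest neighbour, divided by the range of the group, exceeded Dixon's 95% critical value of 0.625. Chance flags about 5% of groups. Control replicate 1 gave 4 of the 6. In it Herpud1 was at 20.7 RPKM, against 9.52 to 10.1 in the other Control hearts. Calr was at 201 RPKM there (others 276 to 323), Hspa5 at 43.2 RPKM (others 86.9 to 126) and the translocon subunit Sec61g at 4.23 RPKM (others 5.32 to 5.99). In CCL4 replicate 3 Vldlr was at 5.44 RPKM (other CCL4 hearts 7.90 to 8.70). In Control replicate 3 Gucy1b3, a subunit of soluble guanylate cyclase, was at 6.08 RPKM (other Control hearts 6.78 to 7.16).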

How the results depend on the processing

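Of the 10 genes, 0 passed in the main test and under every alternative other than array weights, where Atf4 (-0.26), Calr (-0.46) and Manf (-0.59) passed, 3 genes beside 2249 of all tested (16%) and 16 pathway genes. Among the 16 pathway genes, Hspa5 (-0.908), Hsp90b1 (-0.624), Atf3 (-0.831), Vldlr (-0.405) and Slc7a1 (-0.566) were lower with array weights. So were Slc38a2, Mars, Iars, Sec61g and Sec63, while Nupr1 (0.84) and Stc2 (0.35) were higher. The weights of CCL4 replicates 2 and 3 were the smallest of the 12 (0.28 and 0.258). That of CCL4 replicate 5 was the largest (5.7), so the weighted CCL4 values rest mostly on this 1 heart. Over all genes 3 passed with TPM scaling, 1 without the 2 atrium-rich libraries and 0 to 46 with 1 library left out (30 without Control replicate 1, 46 without CCL4 replicate 1), none of them among the 10. Trib3 was at -0.33 with a pseudocount of 0.1. Deviations of same-numbered hearts correlated at r from -0.474 to 0.232, with no common sign, which cannot exclude a batch shared by number. With the replicate number as a block 0 genes passed, and Manf stood at -0.42 (limma adjusted p = 0.705).

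Some small values changed sign, and the cause was not tested. With TPM scaling Chac1 was at -0.0165, Mbtps1 at -0.00626, Pck2 at -0.0135, Slc3a2 at -0.0462, Dnajb9 at -0.0122 and Ppib at -0.00914. With array weights Chac1 was at -0.00653, Eif2ak3 at 0.0193 and Eif2ak4 at 0.00822. With mitochondrial RNA and the chromosome 1 copies left out of the scaling Pdia4 was at 0.000299, Atf6 at 0.00889, Eif2ak3 at 0.0301 and Eif2ak4 at 0.0097; with mitochondrial genes alone left out Eif2ak3 was at 0.00837, and at 0.0126 with median-of-ratios scaling. With voom Eif2ak3 was at 0.0256 and Eif2ak4 at 0.00202. Without CCL4 replicates 2 and 3 together Pck2 was at -0.0076, Slc3a2 at -0.00532 and Ppib at -0.0218. With 1 library left out the ranges were -0.0357 to 0.036 for Chac1 (6 of the 12 fits, since it missed the filter in the others), -0.274 to 0.0231 for Xbp1, -0.286 to 0.0804 for Pdia4, -0.104 to 0.0342 for Eif2ak3, -0.102 to 0.0106 for Eif2ak4, -0.026 to 0.1 for Mbtps1, -0.0244 to 0.194 for Mthfd2, -0.0225 to 0.107 for Pck2, -0.0886 to 0.101 for Slc3a2, -0.00433 to 0.158 for Dnajb9, -0.0993 to 0.16 for Ppib and -0.0204 to 0.107 for Herpud2. Chac1 rested on 12 to 52 reads per library.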
